A study of Mus musculus with 14 samples.

Results

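The genes followed here are 35 genes of the contractile machinery and of the transcriptional programmes of SRF and YAP, out of 43472 genes in the tables. They are picked out by symbol, with no threshold on a measured value, though earlier results of these data were known when the list was drawn up: 27 smooth muscle and actin genes and 8 YAP targets. All 35 reached a mean normalised count of at least 10 in both tables, so no member was lost to the filter on low counts. The cells were primary fibroblasts isolated by collagenase digestion from the tail tips of C57BL/6 mice, grown as a monolayer and wounded with a scratch. They were either left untreated or given AMG, the autologous micrograft, which is skin mechanically disrupted in saline, filtered, and freed of cell remains before its soluble part was diluted into growth medium. Replicate 1 was sampled at 1, 5, 12 and 24 h in both groups, and replicates 2, 3 and 4 at 5 h only, giving 14 poly(A) RNA-seq libraries. All libraries, controls included, came from wounded cultures in serum-containing medium, so no unwounded group was measured here, and serum itself feeds the SRF pathway. The labels give neither the age nor the sex of the mice, nor say whether a replicate number stands for a mouse, a culture or a micrograft.

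Serum response factor (SRF) is a transcription factor that binds a short A/T-rich element, the CArG box, and drives actin, smooth muscle and cytoskeletal genes together with its coactivators of the MRTF family, which are held back by free actin monomers and released when actin filaments form. YAP and its paralogue TAZ (Wwtr1) are coactivators restrained by the Hippo kinases, and they bind DNA through the TEAD factors, whose core site reads GGAATG. In fibroblasts both programmes follow spreading, tension and the state of the actin network, and a high level of the smooth muscle actin gene Acta2 is the usual mark of the myofibroblast, the contractile fibroblast of healing wounds.

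Promoter windows of 300 bases, 250 before to 50 after an annotated start in RefSeq (GRCm38.p6), were found for 31 of the 35 members, and none was given for Actb, Actg2, Ctgf or Tagln. The following stretches are shown because they carry the SRF-type element in members of the smooth muscle and actin class, with the CArG box in capitals. They lie at chr8:123894819-123894868, minus strand (Acta1), chr11:120348556-120348605, minus strand (Actg1), chr10:79988524-79988573, plus strand (Cnn2), chr2:156775283-156775332, plus strand (Myl9) and chr14:20929151-20929200, plus strand (Vcl), all upstream of the start.
Acta1: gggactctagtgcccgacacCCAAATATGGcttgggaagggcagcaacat
Actg1: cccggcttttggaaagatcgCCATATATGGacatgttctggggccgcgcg
Cnn2: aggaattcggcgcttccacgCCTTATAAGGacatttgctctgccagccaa
Myl9: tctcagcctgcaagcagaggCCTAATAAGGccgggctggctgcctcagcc
Vcl: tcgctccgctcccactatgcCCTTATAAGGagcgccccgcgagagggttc

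The CArG box, searched on both strands, was present in 8 of the 27 windows (29.6%) that cover 24 smooth muscle and actin genes. The windows with a match belong to 7 genes (Acta1, Actg1, Cnn2, Fhl2, Myl6, Myl9 and Vcl). It was present in 0 of the 8 windows that cover 7 YAP targets, and in 1.63% of all 32851 windows. GGAATG, or its reverse CATTCC, was present in 6 of the 8 windows of YAP targets (75%), in 10 of the 27 windows of the smooth muscle and actin class (37%) and in 14.7% of all windows. The stretches below carry it in 3 YAP targets, with the word in capitals, at chr3:145650063-145650108, minus strand (Cyr61), chr19:36119942-36120074, minus strand (Ankrd1) and chr7:25788941-25788983, minus strand (Axl).
Cyr61: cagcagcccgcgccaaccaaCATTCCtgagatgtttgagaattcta
Ankrd1: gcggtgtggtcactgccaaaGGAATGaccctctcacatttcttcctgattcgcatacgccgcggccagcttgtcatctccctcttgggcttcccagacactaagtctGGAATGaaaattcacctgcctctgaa
Axl: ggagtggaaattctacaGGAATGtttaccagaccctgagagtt
A match describes letters in a window and is not a binding site, and a window without a match says only that the letters are not in it. The members were listed as genes of the SRF and YAP programmes, so shares above that of all windows are not an independent result.

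Library totals ranged from 12545537 to 34696529 reads assigned to genes. Ribosomal protein genes, 84 in number, took 6.95% of the reads of untreated replicate 1 at 5 h and 5.06% of treated replicate 1 at 1 h, against 2.26% to 3.45% in the other 12 libraries, so the replicate 1 ratios at 1 and 5 h each rest on a library that stands apart, while those at 12 and 24 h do not. In replicates 2 to 4 the same share was 2.26% to 2.80% untreated and 3.14% to 3.45% treated. Its part in the results below was not tested. All 10 fibroblast markers were expressed (summed normalised counts of 485208 to 675537 untreated and 412102 to 533552 treated at 5 h, replicates 2 to 4). All 7 markers of smooth muscle and pericytes that are not members also had a mean of at least 10, at sums of 10476 to 15763. Skeletal muscle markers other than Acta1 and Des summed to 5.57 to 16.9 in the same libraries, with Myod1 at 0 in all 14.

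At 5 h, over replicates 2 to 4, the median log2 change was -0.12 for the smooth muscle and actin genes and -0.02 for all genes. Without a replicate term in the fit, the difference that passed was a lower level of Lmod1, which encodes leiomodin 1, an actin filament nucleator of smooth muscle. With the replicate number as a block, 12 members passed as lower (34.3%, against 19.3% of all genes) and 3 as higher (8.57%, against 17.9%). Levels are normalised counts, that is reads divided by a library's size factor, and a fold change is the difference of mean log2(normalised count + 1), treated minus untreated, tested with limma (two-sided, Benjamini-Hochberg over 13096 genes). Lmod1 (chr1:135324807-135368065, GRCm38) counted 4419, 3856 and 4436 in untreated replicates 2, 3 and 4 and 1828, 2171 and 2033 in the treated ones. Every treated library was below every untreated one, and the mean went from 4237 ± 330.3 to 2011 ± 172 (SD, n = 3), a log2 change of -1.08 (SE 0.12, 95% interval -1.37 to -0.78, limma adjusted p = 0.019). Lmod1 was also lower in replicate 1 at 5 h (log2 ratio -0.71), so 4 of 4 pairs agreed in direction. The call was lost when untreated replicate 2, untreated replicate 4, treated replicate 2 or treated replicate 4 was left out (limma adjusted p = 0.11, 0.102, 0.124 and 0.118), with log2 changes of -1.04, -1.04, -1.01 and -1.09.

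Without the block Lmod1 was the single member past the threshold, 0 higher and 1 lower of 35, where 1.24% of all genes were called (0.97% higher, 0.267% lower). By edgeR the count was also 0 higher and 1 lower (against 1.03% of all genes), by DESeq2 0 higher and 4 lower (Lmod1, Actn1, Vcl and Lats2, 11.4% of members, against 4.43% of all genes lower, 6.52% higher and 10.9% in all), and at an unadjusted limma p under 0.05 it was 1 higher and 6 lower (20% of members, 23.1% of all genes). The 2 groups did not overlap for 7 members (Tagln2, Cald1, Lmod1, Actn1, Vcl, Fhl2 and Lats2), 20% of the list, against 28.7% of all genes. With the replicate number as a block, 3 members were higher (Tagln2, Myl6 and Tpm2) and 12 lower (Acta1, Cnn2, Cald1, Lmod1, Myh9, Myh10, Actn1, Actn4, Vcl, Flna, Fhl2 and Lats2), 42.9% of the members against 37.2% of all genes (17.9% higher, 19.3% lower). By direction, 8.57% of members were higher and 34.3% lower with the block. Of these 15 members 10 had a replicate 1 ratio of the opposite sign at 5 h (Tagln2, Cald1, Myl6, Myh9, Myh10, Tpm2, Actn1, Actn4, Vcl and Flna). The matching share over all genes called with the block was not computed, so this count is not a result particular to the members. The median log2 change was -0.12 over the 27 smooth muscle and actin genes (9 higher, 18 lower), 0.03 over the 8 YAP targets (4 higher, 4 lower) and -0.02 over all genes tested.

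**Figure D1:**
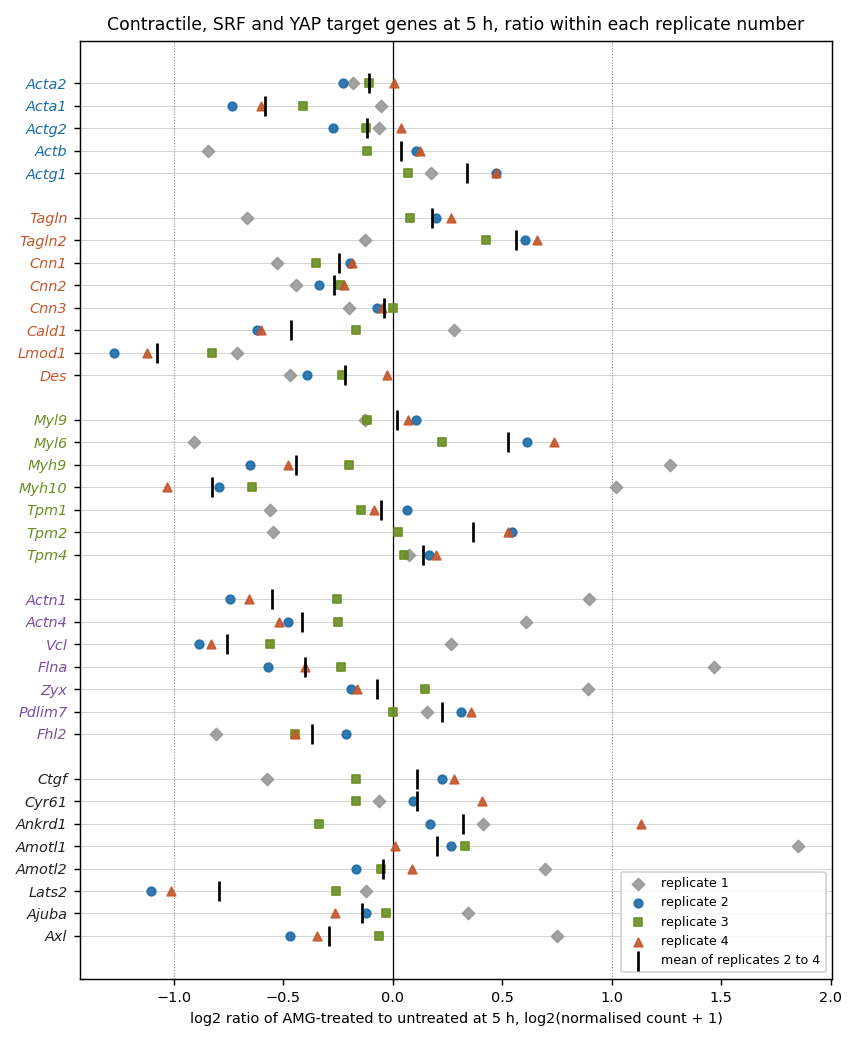
Log2 ratio of AMG-treated to untreated at 5 h (x axis, on log2(normalised count + 1)) for each member, grouped by role (label colours), within each replicate number (symbols), with the mean of replicates 2 to 4 as a black bar. Lmod1 lies left of 0 in all 4 pairs, and the grey diamonds of replicate 1 lie to the right of the other 3 for long genes such as Flna, Myh9 and Myh10.

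Among the actins, the smooth muscle actin Acta2 (chr19:34241090-34255590) was the most abundant member per kilobase of exon in untreated cells at 5 h, at 70055 normalised counts per kb, above Tagln (37709.7), the cytoplasmic actin Actb (26828), Ctgf (23654) and Actg1 (23132). Acta2 counted 154866, 145660 and 160999 in untreated replicates 2, 3 and 4 and 132392, 135114 and 161732 in the treated ones. The treated values span the untreated ones, and the log2 change was -0.11 (SE 0.21, 95% interval -0.60 to 0.38, limma adjusted p = 0.783). Acta1, the actin of skeletal muscle, counted 2893, 7289 and 6894 in untreated replicates 2, 3 and 4 and 1735, 5490.3 and 4541 in the treated ones. It was lower in every pair while the groups overlapped, replicate 2 holding fewer counts than the others in both groups, and its log2 change of -0.58 passed only with the replicate block (limma adjusted p = 0.526 without it and 0.00207 with it). Actb counted 65522, 75335 and 74763 untreated against 70405, 69301 and 81508 treated, with a log2 change of 0.04 (limma adjusted p = 0.924). Actg1, the other cytoplasmic actin, counted 60803, 59858 and 63795 untreated against 84174, 62829.8 and 88402 treated, with all pairs higher but overlapping groups (log2 change 0.34, limma adjusted p = 0.341, 0.062 with the block). Actg2, the actin of visceral smooth muscle, had a log2 change of -0.12.

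In the smooth muscle and calponin family, Tagln (transgelin, an actin-bundling protein) and its widely expressed relative Tagln2 both averaged higher in treated cells. Tagln2 (chr1:172500047-172507380) counted 4748, 6339.6 and 6510.1 in untreated replicates 2, 3 and 4 and 7216, 8527 and 10266 in the treated ones, each treated library being above all untreated ones. Its mean went from 5866 ± 972 to 8669.7 ± 1529.7 (SD, n = 3), a log2 change of 0.56 (SE 0.19), which passed with the block and not without it (limma adjusted p = 0.00197 and 0.152). Tagln counted 70219.9, 68958 and 85723 untreated against 80382, 72739.7 and 103171 treated, a log2 change of 0.18 within the spread between replicates (limma adjusted p = 0.644). Calponin 1 (Cnn1), which binds actin and restrains myosin in smooth muscle, counted 20374, 14602 and 13856 untreated against 17801, 11438 and 12166 treated. Cnn1 was below its untreated partner in all 4 pairs, with overlapping groups (log2 change -0.24, limma adjusted p = 0.551, 0.062 with the block). The other calponins differed by -0.27 (Cnn2, lower in 4 of 4 pairs, passing with the block at limma adjusted p = 0.043) and -0.04 (Cnn3). Caldesmon (Cald1), a further actin and myosin binding regulator, differed by -0.46 with no overlap between the groups (limma adjusted p = 0.208, 0.0155 with the block), and the intermediate filament gene Des, at 68.9 to 341 counts, by -0.22.

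**Figure D2:**
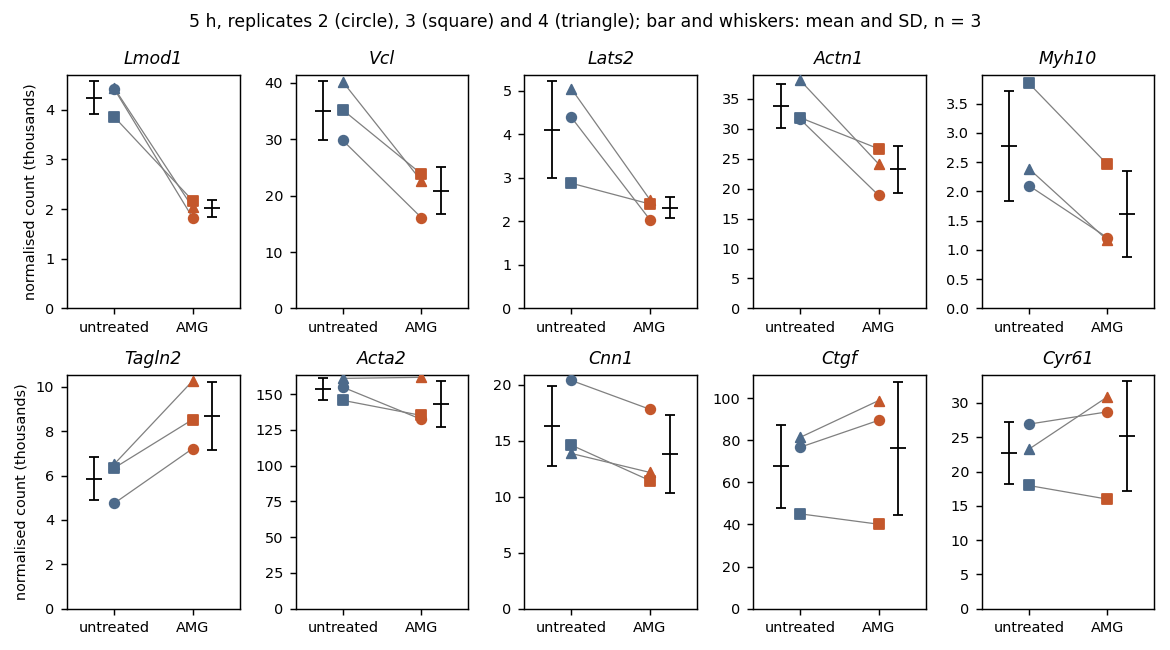
Normalised counts (y axis, in units of 1000) of 10 members at 5 h in untreated and AMG-treated replicates 2, 3 and 4, lines joining libraries of the same replicate number, with mean and SD (n = 3) beside the points. Treated Lmod1, Vcl, Lats2 and Actn1 lie below all untreated points and treated Tagln2 above them, while Acta2, Cnn1, Ctgf, Cyr61 and Myh10 overlap.

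The myosin and tropomyosin genes went in both directions, the nonmuscle heavy chains averaging lower and Myl6 and Tpm2 higher. Myh10, a heavy chain of nonmuscle myosin II, counted 2101, 3850.0 and 2391 in untreated replicates 2, 3 and 4 and 1211, 2463 and 1168 in the treated ones. Replicate 3 stood above replicates 2 and 4 in both groups, each of these pairs was lower by a log2 ratio of 0.64 to 1.03 in size while replicate 1 was higher (1.02), and the change of -0.82 passed with the block alone (limma adjusted p = 0.000553, 0.217 without it). The second heavy chain, Myh9, differed by -0.44 (limma adjusted p = 0.295, 0.016 with the block), with replicate 1 at 1.26. Of the light chains, Myl6, the essential one of nonmuscle myosin, counted 12655, 9258 and 13390.2 in untreated replicates 2, 3 and 4 and 19372, 10821 and 22271 in the treated ones. It was higher in each of these pairs with overlapping groups, a log2 change of 0.52 (limma adjusted p = 0.323, 0.00717 with the block, and 0.0407 without treated replicate 3, where it was 0.84). The regulatory light chain Myl9 counted 22878, 18018 and 25167 untreated against 24578, 16621 and 26384 treated, with no direction shared by the pairs (log2 change 0.02, limma adjusted p = 0.971). Tropomyosin 1 (Tpm1), a filament-stabilising protein, counted 73234, 62832 and 76388 untreated against 76481, 56880.4 and 72051 treated (log2 change -0.06, limma adjusted p = 0.893). Tpm2 and Tpm4 differed by 0.37 (limma adjusted p = 0.0432 with the block) and 0.14.

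Of the 7 crosslinkers and adhesion adaptors, 6 averaged lower and Pdlim7 higher. Vinculin (Vcl, chr14:20929398-21033676), which ties talin at focal adhesions to actin, counted 29793, 35192 and 40181 in untreated replicates 2, 3 and 4 and 16115, 23857 and 22620.1 in the treated ones. All treated libraries were below all untreated ones, with means going from 35055 ± 5195 to 20864 ± 4159 (SD, n = 3) and a log2 change of -0.76 (SE 0.21, 95% interval -1.25 to -0.27, limma adjusted p = 0.113, 0.00106 with the block). Replicate 1 went the other way for Vcl (log2 ratio 0.27). The filament crosslinker alpha-actinin 1 (Actn1) counted 31562, 31828 and 38060 in untreated replicates 2, 3 and 4 and 18871, 26628 and 24102 in the treated ones. Its groups did not overlap either, with a log2 change of -0.55 (SE 0.18, limma adjusted p = 0.15, 0.00689 with the block) and a replicate 1 ratio of 0.89. Its paralogue Actn4 differed by -0.42 (limma adjusted p = 0.0115 with the block), filamin A (Flna), which crosslinks filaments into networks, by -0.40 (0.0247), and Fhl2, a LIM protein that binds SRF cofactors, by -0.37 (0.0126), again as limma adjusted p with the block. Zyxin (Zyx) differed by -0.07. Pdlim7, a LIM protein of actin bundles, counted 4609, 3592 and 4502 untreated against 5718, 3595 and 5771 treated, a log2 change of 0.22 (limma adjusted p = 0.562).

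YAP targets shared no direction at 5 h. The secreted matricellular genes Ctgf (Ccn2, chr10:24595442-24598683) and Cyr61 (Ccn1, chr3:145646976-145649981) are the usual reporters of YAP activity. Ctgf counted 76647, 45053 and 81324 in untreated replicates 2, 3 and 4 and 89427, 40119 and 98795 in the treated ones, and Cyr61 26902, 17964 and 23247 untreated against 28695, 15974 and 30871 treated. For both genes replicates 2 and 4 were higher and replicate 3 lower in treated cells, with log2 changes of 0.11 (95% interval -0.85 to 1.07, limma adjusted p = 0.894) and 0.11 (-0.58 to 0.80, 0.847). Ankrd1, a stretch-responsive ankyrin repeat gene, counted 529, 1565 and 329.9 in untreated replicates 2, 3 and 4 and 595, 1237 and 725 in the treated ones. Untreated replicate 3 stood well above untreated replicates 2 and 4, and the log2 change of 0.32 had an interval of -1.03 to 1.67 (limma adjusted p = 0.767).

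Among the YAP targets that feed back on the pathway, Lats2, one of the Hippo kinases that phosphorylate YAP, was the member whose groups did not overlap. Lats2 (chr14:57689662-57758388) counted 4386, 2875 and 5043 in untreated replicates 2, 3 and 4 and 2038, 2398 and 2497 in the treated ones. The means went from 4101 ± 1112 to 2311 ± 242 (SD, n = 3) and the log2 change was -0.79 (SE 0.22, 95% interval -1.32 to -0.27, limma adjusted p = 0.115, 0.00409 with the block), while the ratio was -0.26 in replicate 3 and -0.12 in replicate 1. Amotl2, a junctional scaffold that retains YAP in the cytoplasm, counted 13718, 11820.2 and 14916 untreated against 12204, 11377 and 15860.2 treated (log2 change -0.05, limma adjusted p = 0.902). The receptor tyrosine kinase gene Axl counted 18141, 25230.5 and 22224 untreated against 13088, 24176 and 17471 treated, lower in each of these pairs and higher in replicate 1 (0.75), with a log2 change of -0.29 (limma adjusted p = 0.509, 0.0563 with the block). Amotl1 and Ajuba differed by 0.20 and -0.14. In single pairs 1 YAP target, Ankrd1 in replicate 4 (1.13), went above a log2 ratio of 1 in replicates 2 to 4, and Lats2 in replicates 2 and 4 (-1.11 and -1.01) went below -1.

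Transcript length moved with the 5 h ratios. Across all genes with an annotated length, the Spearman correlation between exon length and the fitted log2 change was -0.35 (12917 genes) and among the 35 members -0.40, whereas the replicate 1 ratio at 5 h gave 0.42 over all genes (13306) and 0.56 over members. Genes of a library share its RNA and are not independent replicates, so these are descriptions. After the length trend was removed in each library, Vcl differed by -0.58, Actn1 by -0.47, Myh10 by -0.59, Lats2 by -0.65 and Tagln2 by 0.38, and Lmod1 by -1.09 (limma adjusted p = 0.018). Length correction and the block together called 3 members higher and 12 lower, against 34.4% of all genes (18.1% higher, 16.3% lower). Cald1, Myh9 and Flna, whose exons span 12041, 12928 and 9400 bases, then no longer passed (limma adjusted p = 0.133, 0.217 and 0.165), nor did Tpm2 (0.0726), while Actg2, Cnn1, Myl9 and Amotl1 did (0.0118, 0.00773, 0.0155 and 0.00327).

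**Figure D3:**
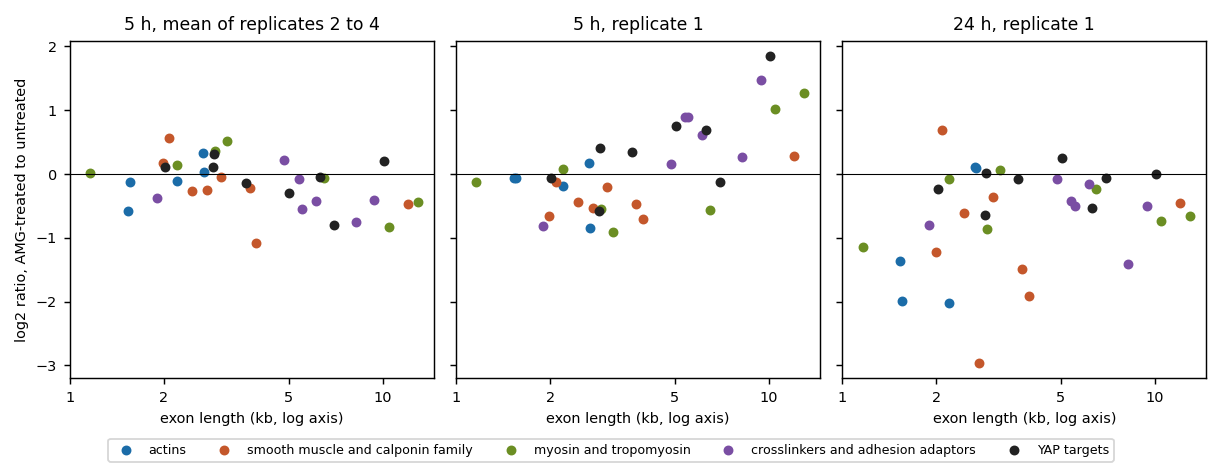
Log2 ratio of AMG-treated to untreated (y axis) against exon length in kb (x axis, log scale) for the 35 members, coloured by role, in the 5 h mean of replicates 2 to 4, in replicate 1 at 5 h and in replicate 1 at 24 h. Long members sit low in the first panel and high in the second (Spearman correlations of -0.40 and 0.56), and the 24 h panel gives 0.18.

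The time course, replicate 1 only, has 1 library per group and time, so its ratios carry no test and no error. At the later times the smooth muscle and actin genes had lower medians than the YAP targets, a contrast that was not tested. At 12 h, 26 of 27 smooth muscle and actin genes were lower in treated cells (median log2 ratio -0.63), and 10 of them lay below -1, a level below the untreated one by more than 2-fold, against 6.9% of all genes. At 24 h, 23 of 27 were lower (median -0.61) and 9 lay below -1, against 8.05% of all genes. The 8 YAP targets had medians of -0.02 at 12 h and -0.07 at 24 h, with 1 below -1 at 12 h (Ctgf) and 0 at 24 h. At 1 and 5 h, where a library that stands apart enters each ratio, the medians were 0.06 and -0.13 for the smooth muscle and actin genes and -0.55 and 0.38 for the YAP targets. With libraries scaled to total reads, the smooth muscle and actin median at 1 h was -0.15 and that of all genes -0.27. The members past a log2 ratio of 1 or -1 at these times were largely long genes with opposite signs at the 2 times: among the smooth muscle and actin class Myl6 lay above 1 and Myh9, Myh10 and Flna below -1 at 1 h (11.3% and 10.7% of all genes), and the last 3 lay above 1 at 5 h, with 0 below -1 (13.3% and 12.6%). Over all genes the medians at 1, 5, 12 and 24 h were -0.06, -0.01, -0.01 and 0.02. After the length trend was removed, 25 and 23 of the 27 were lower at 12 and 24 h and 7 and 9 lay below -1. On that scale 6507 and 6418 of all 13306 genes were lower, and 872 and 1091 lay below -1. Among the 4200 genes averaging 1000 normalised counts or more, 2.83% lay below -1 at 12 h and 3.67% at 24 h, against 9 and 8 of the 26 smooth muscle and actin genes in that range.

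Members below -1 were mostly the same ones at both late times: 8 genes (Acta2, Acta1, Actg2, Cnn1, Lmod1, Des, Myl9 and Vcl), which make up 72.7% of the 11 at 12 h and 88.9% of the 9 at 24 h. These 2 ratios use different libraries of the same replicate. Cnn2, Fhl2 and Ctgf were below -1 at 12 h only, and Tagln at 24 h only.

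**Figure D4:**
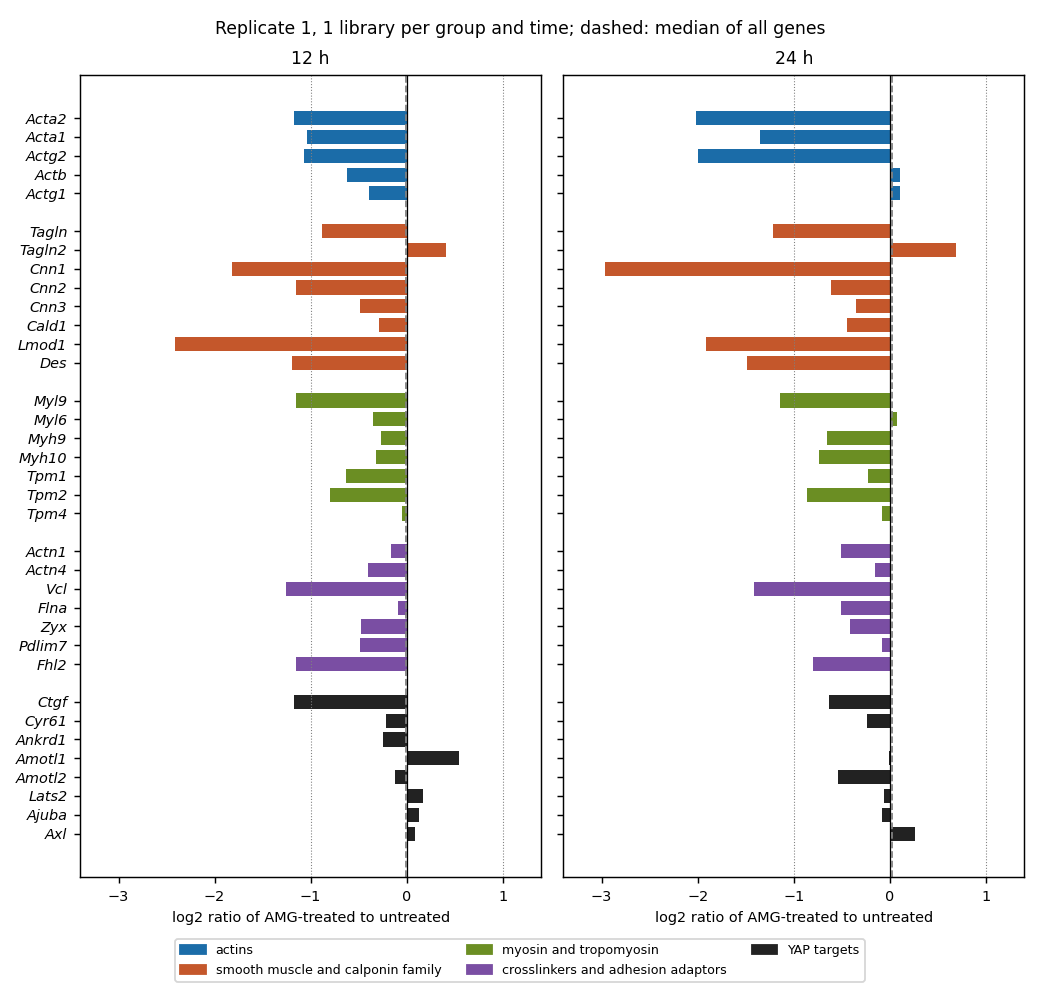
Log2 ratio of AMG-treated to untreated (x axis) for every member at 12 h and at 24 h in replicate 1, coloured by role, with dotted lines at -1 and 1 and the median of all genes dashed. Smooth muscle actins, Cnn1, Lmod1, Des, Myl9 and Vcl reach beyond -1 at both times, while the YAP targets other than Ctgf lie between -0.54 and 0.54.

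The largest late differences were in smooth muscle genes proper. In the order 1, 5, 12 and 24 h, Acta2 counted 122294, 113295, 84107 and 62221 in untreated cells and 127602, 99878, 37413 and 15379.6 in treated cells. The log2 ratio at 1 h, where the treated library stands apart, was 0.06, and -0.35 after the length trend was removed. At 24 h treated cells held 24.7% of the untreated count (log2 ratio -2.02). Acta2 took the 13th rank by reads among all genes in untreated cells at 24 h and the 132nd in treated cells, from 6th and 8th at 1 h. A lower level in a bulk library can come from fewer cells of a type or from less RNA per cell, and these cannot be told apart. Cnn1 over the same times counted 18084, 21246, 11205 and 7594 in untreated cells and 22879, 14726, 3182 and 972 in treated cells. It ended at 12.8% of the untreated count, the lowest share of any member (log2 ratio -1.82 at 12 h and -2.96 at 24 h). Lmod1, the gene called at 5 h without the block, counted 2283, 1441, 2383 and 1822 in untreated cells and 1297, 879, 447 and 483 in treated cells. It was lower at all 4 times (-0.81, -0.71, -2.41 and -1.91).

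Tagln counted 73621, 125226, 55646 and 35892 in untreated cells and 125498, 79005, 30199.9 and 15439 in treated cells. Treated cells were above untreated ones at 1 h and below at every later time, with log2 ratios of 0.77, -0.66, -0.88 and -1.22. The ratios at 1 and 5 h each rest on a library that stands apart, and were 0.28 and -0.15 after the length trend was removed. At 5 h replicates 2, 3 and 4 went the other way (0.19, 0.08 and 0.27). Of the 50-base words in Tagln's annotated transcripts, 58.4% also occur, on either strand, in transcripts of another gene, mostly Gm48529, and such reads may have been dropped or assigned elsewhere. The word shares of other members below also count matches on either strand. Acta1 counted 2012, 1485, 754 and 675 in untreated cells and 1636, 1429.6, 367 and 263 in treated cells, with ratios of -1.04 at 12 h and -1.36 at 24 h. Myl9 counted 17558, 20086, 12825 and 10197 in untreated cells and 19063, 18406, 5775 and 4600.3 in treated cells. Its log2 ratio was 0.12 and -0.13 at 1 and 5 h and -1.15 and -1.15 at 12 and 24 h. Actg2 fell alongside Acta2, to a log2 ratio of -1.99 at 24 h, and Des, at 85.0 and 29.7 counts at 24 h, to -1.49.

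By contrast the cytoplasmic actins, which every cell uses, stood close to the untreated level at 24 h. Actb counted 83596, 167462, 58844 and 39959.7 in untreated cells and 149478, 93256, 38134 and 42836 in treated cells, and Actg1 76472, 83889, 50082 and 36352 in untreated cells and 92152, 94592, 38119 and 39169.6 in treated cells. Their log2 ratios at 24 h were 0.10 and 0.11, after -0.63 and -0.39 at 12 h. Of the words in Actg1's transcripts 37.4% are shared with other genes, mostly Gm12715. Tagln2, the nonmuscle relative of Tagln, counted 8895, 13857, 5622 and 4357 in untreated cells and 14865, 12676, 7449 and 7029 in treated cells. It was the only smooth muscle or actin member above the untreated level at both 12 h (0.41) and 24 h (0.69) in replicate 1, where its 5 h ratio was -0.13. Myl6 counted 10951, 32533, 9986 and 7326 in untreated cells and 25011, 17358, 7829 and 7689 in treated cells, ending at a log2 ratio of 0.07, and Tpm1 65817, 90515, 49719 and 36731 in untreated cells and 86970.5, 61420.5, 32134 and 31295 in treated cells, ending at -0.23.

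**Figure D5:**
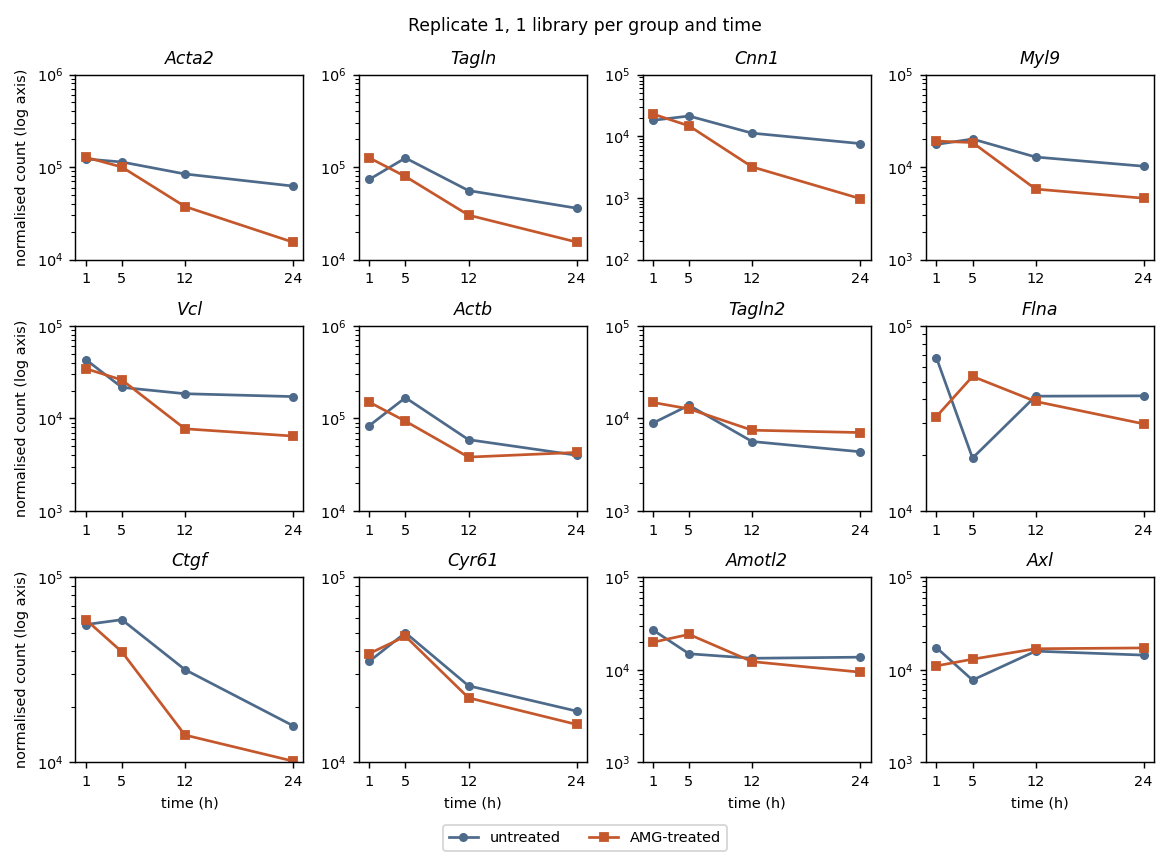
Normalised counts (y axis, log scale) of 12 members over time (x axis, hours) in untreated (blue circles) and AMG-treated (orange squares) cells of replicate 1, with 1 library per point. Treated values lie below untreated ones at 12 and 24 h for Acta2, Tagln, Cnn1, Myl9, Vcl and Ctgf, those of Actb meet again at 24 h, and Flna at 5 h shows the low value of the untreated library in which ribosomal protein genes took 6.95% of reads.

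Crosslinkers and heavy chains followed a shallower course, with Vcl apart from the rest. Vcl counted 43185, 21634, 18473 and 17204 in untreated cells and 34486, 26028, 7715 and 6437 in treated cells. Its log2 ratio was -1.26 at 12 h and -1.42 at 24 h, where treated cells held 37.4% of the untreated count, and 25.1% of the words of its transcripts occur in Ap3m1. The other 6 crosslinkers and adaptors ranged from -0.80 (Fhl2) to -0.08 (Pdlim7) at 24 h. Actn1 counted 32856, 13239, 23980.5 and 24797 in untreated cells and 18974, 24599, 21358 and 17461 in treated cells. Pdlim7 counted 5916, 5330.4, 4264 and 3276 in untreated cells and 6265, 5929.8, 3035 and 3092 in treated cells, and Myh10 2969, 1029, 1982 and 2676 in untreated cells and 1261, 2084, 1583 and 1599 in treated cells. For Actn1 and Myh10 the untreated 5 h library is the lowest of its group and the treated 1 h library is low too, the 2 libraries with high ribosomal protein shares, and the late ratios were -0.51 and -0.74 at 24 h.

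Ctgf was the YAP target with the largest late difference. It counted 55484, 58950.4, 31659 and 15745 in untreated cells and 58962, 39516, 14027 and 10140.3 in treated cells. The log2 ratio of Ctgf at 1 h was 0.09, and -0.13 after the length trend was removed. It was -1.17 at 12 h and -0.63 at 24 h, with untreated cells declining too. Of the words in its transcripts, 17.2% occur in Gm15270. Cyr61 counted 35126, 50084, 25891 and 18894 in untreated cells and 38699, 47943, 22291 and 15999.8 in treated cells, with log2 ratios between -0.24 and 0.14 at the 4 times. The untreated and treated courses of Cyr61 therefore ran close together while those of Ctgf parted. Ankrd1 counted 440.3, 313, 695 and 365 in untreated cells and 325, 417, 585 and 368 in treated cells, ending at 0.01.

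The remaining YAP targets had late ratios between -0.54 and 0.54. Amotl2 counted 26908, 14876, 13301 and 13670.1 in untreated cells and 19821, 24118, 12242 and 9415 in treated cells, a log2 ratio of -0.54 at 24 h. Lats2 counted 1822, 1769, 2434 and 2419 in untreated cells and 1069, 1625, 2729 and 2326 in treated cells. Its lower level at 5 h in replicates 2 to 4 had no counterpart at 12 h (0.17) or 24 h (-0.06) in replicate 1, and 41.2% of the words of its transcripts occur in Gm49361. Axl counted 17314, 7730.0, 15879 and 14391 in untreated cells and 11007, 13002, 16863 and 17206 in treated cells, ending at 0.26. Amotl1 was at 0.54 at 12 h, and Amotl1 and Ajuba ended at -0.0045 and -0.08.

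Untreated wounded cells also held fewer contractile transcripts at 24 h than at 1 h. From 1 to 24 h all 27 smooth muscle and actin genes were lower in untreated replicate 1 (median log2 ratio -0.78), 9 of them below -1 against 7.62% of all genes. Scaling to total reads raised the median of all genes by 0.25 for this interval, and left 25 of 27 lower, 4 of them below -1, the class median then lying -0.77 from that of all genes. By 12 h the medians were already -0.47 for these genes and -0.41 for the YAP targets. YAP targets had a median of -0.46 from 1 to 24 h, 7 lower and 1 (Lats2, 0.41) higher, with Ctgf at -1.82. The 1 h and 24 h untreated libraries are not among those with a high ribosomal protein share. In untreated cells Acta2 at 24 h was 50.9% of its 1 h count, Cnn1 42% and Des 16.2%. Treated cells stood at 12.1%, 4.25% and 5.64% of their own 1 h counts, a library with a high ribosomal protein share. From 5 to 24 h, which leaves that library out, all 27 were lower in treated cells (median -0.96), 12 of them below -1 against 9.65% of all genes. Together the 27 smooth muscle and actin genes took 4.27% of reads in untreated cells at 1 h and 2.86% at 24 h, against 4.15% and 1.88% in treated cells, and the 8 YAP targets went from 0.677% to 0.392% and from 0.546% to 0.321%.

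Late differences of the 7 genes with a CArG box in a promoter window ran from -1.42 (Vcl) to 0.11 (Actg1) at 24 h, and 3 of them (Acta1, Myl9 and Vcl) lay below -1. Of the 17 genes of this class with a window and no such match, 4 (Acta2, Cnn1, Lmod1 and Des) lay below -1, over a range from -2.96 (Cnn1) to 0.69 (Tagln2).

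Of the regulators of both programmes, neither Srf nor Yap1 nor Wwtr1 passed at 5 h without the block. Srf counted 1606, 1774 and 2015 in untreated replicates 2, 3 and 4 and 1877, 2007 and 2514 in the treated ones. Its log2 change was 0.24, and it did not pass with the block either (limma adjusted p = 0.383, 0.0588 with the block). Its ratios in replicate 1 were -0.61 at 12 h and 0.16 at 24 h. Yap1 counted 3679, 4173 and 3703 untreated against 2767, 3583 and 2419 treated, a log2 change of -0.41 (limma adjusted p = 0.202, 0.0109 with the block). Wwtr1, which encodes TAZ, counted 3087, 2623 and 3363 untreated against 3933, 3296 and 4066 treated, a log2 change of 0.32 (limma adjusted p = 0.245, 0.017 with the block). After length correction the 5 h changes over replicates 2 to 4 were 0.15 (Srf), -0.20 (Yap1) and 0.36 (Wwtr1). In replicate 1 the log2 ratios at 5 h were 0.95 (Srf), 0.46 (Yap1) and 0.73 (Wwtr1). At 24 h in replicate 1 they were 0.14 (Yap1) and 0.15 (Wwtr1). Vgll3, a TEAD cofactor, was the gene of the 7 pathway lists that passed at 5 h without the block. It counted 5085, 4079.8 and 5340.2 in untreated replicates 2, 3 and 4 and 2636, 2682 and 2648 in the treated ones, with no overlap. Its log2 change was -0.85 (SE 0.13, limma adjusted p = 0.0414, lost with length correction, and up to 0.201 over the alternatives).

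Of the lists of related genes, 0 of 7 SRF regulators, 0 of 18 further SRF targets, 1 of 18 YAP and Hippo regulators (Vgll3, lower), 0 of 20 further YAP targets, 0 of 12 focal adhesion genes and 0 of 14 TGF-beta response genes passed the limma test at 5 h, where 1.24% of all genes did. With the block the counts higher and lower were 2 and 3, 2 and 6, 3 and 6, 6 and 9, 1 and 4, and 2 and 7, in the same order, against 17.9% of all genes higher and 19.3% lower. Median log2 changes at 5 h were -0.34, -0.08, -0.18, -0.17, -0.23 and -0.31, and after length correction -0.23, 0.04, -0.07, -0.01, -0.05 and -0.21. Late in the course the further SRF targets had medians of -0.50 at 12 h and -0.23 at 24 h, and those below -1 were Mylk, Synpo2 and Csrp1 at 12 h (-3.30, -2.07 and -1.56) and the same 3 with Myh11 at 24 h (-2.91, -2.11, -1.45 and -3.20), named after their values were seen. Mylk is the kinase that activates smooth muscle myosin and Myh11 its heavy chain. Focal adhesion genes stayed at 0.03 and YAP and Hippo regulators at -0.04 at 24 h. The further YAP targets then stood at -0.49, with 4 of 20 below -1 and 4 above 1. TGF-beta response genes stood at -0.94, with 6 of 14 below -1 and 1 above 1. Of all genes 8.05% lay below -1 and 6.05% above 1.

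Most marker lists of cell types had lower sums in treated cells at 24 h. Skeletal muscle markers other than Acta1 and Des went the other way, at 31.4 untreated and 36.0 treated. Fibroblast markers, which include collagens of the same cells, summed to 410397 untreated and 270254 treated at 24 h, smooth muscle and pericyte markers to 3860 and 2419, keratinocyte markers to 753 and 270, leukocyte markers to 1058 and 362 and endothelial markers to 105 and 50.4. At 5 h, replicates 2 to 4, the smooth muscle and pericyte sum was 11279 to 15763 untreated and 10476 to 15090 treated. Krt1 and Cd3e were at 0 in all 14 libraries, and of the 8 keratinocyte markers 3 had a mean of at least 10. So did 3 of the 6 leukocyte markers measured and 1 of the 5 endothelial ones. The part of these cells in the contractile ratios was not tested.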

How the data were processed

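RNA was measured by stranded poly(A) RNA-seq in 14 libraries. Per the labels and the study's methods the authors aligned reads to mm10 with TopHat2 2.0.13, counted them per gene with HTSeq 0.5.3p3 and normalised with DESeq. The annotation release and the strand setting are not given in the sources used here. The deposited values are a signal, normalised counts, meaning gene counts divided by a size factor per library, made by the authors separately for replicate 1 and for replicates 2 to 4. No level was therefore compared between the 2 tables, and 5 h ratios of replicate 1 were formed within its own table. Whole reads were recovered from 100% of the values (tolerance 0.1 reads), which gave the library totals of 12545537 to 34696529. The lowest count of a member in a library was 33 reads (Des). All columns were mapped to samples, 0 being left out.

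Groups came from the labels. The 5 h contrast used limma 3.58.1 (R 4.3.3) with a trend on log2(normalised count + 1) over 13096 genes that averaged 10 or more, two-sided, without a replicate term, with Benjamini-Hochberg adjustment and a threshold of 0.05. Separate cultures or animals behind the replicates are not stated beyond the series calling them biological, so the p-values measure the spread between these libraries. The replicate numbers paired the libraries: deviations from the group means correlated at 0.65, 0.76 and 0.70 for equal numbers, and at -0.59 to 0.12 for unequal ones (13096 genes). The fit with the number as a block is therefore given where it changes a call. Time course ratios, replicate 1, have no replicates and no test, and a log2 ratio past 1 or -1 describes size alone. Length correction removed, in each library, a lowess trend (span 2/3) of the deviation from the gene's mean on log2 exon length. Exon lengths and gene positions came from GENCODE (GRCm38), promoter windows from RefSeq (GRCm38.p6). As alternatives the whole reads were tested with edgeR 4.0.16 and with DESeq2 1.42.0, and the rest were other pseudocounts (0.1 and 10), filters (a mean of at least 50, or all genes above 0), scalings, and leaving out each library.

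The members and all gene lists were chosen with earlier results of these data known. Values in every library were given for 14 canonical members, for members called in either fit with a log2 change of at least 0.5 in size, and for the extremes of each class, 21 in all. Of the 7 pathway lists tested, 1 is not reported here. From the others, called genes and Srf, Yap1 and Wwtr1 were named.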

Additional observations from a re-analysis of the deposited data

Results flagged for a closer look

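For Flna, the filament crosslinker, the 5 h log2 ratio of replicate 1 was 1.467, far from the ratios of replicates 2 to 4 (-0.57 to -0.24). Dixon's test was run on the 4 ratios of each of 35 members, and chance alone flags about 1 in 20 such groups. The untreated 5 h library of replicate 1 is the one in which ribosomal protein genes took 6.95% of reads. Its part in this ratio was not tested.

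The following members had a 5 h ratio of the same sign in all 4 replicates and the opposite sign later in replicate 1. Each late value is 1 pair of libraries, and the difference between times was not tested. Actg1 had a log2 ratio of -0.3938 at 12 h, against 0.07 to 0.47 at 5 h. Pdlim7 stood at -0.4903 at 12 h and -0.0835 at 24 h, against 0.00 to 0.36, its 5 h ratio in replicate 3 being 0.00099. Tpm4, a nonmuscle tropomyosin, stood at -0.0517 and -0.0784, against 0.05 to 0.20. After the length trend was removed, the 12 h ratio of Tpm4 was 0.064 and its 5 h change over replicates 2 to 4 was -0.031. Amotl1 was at -0.0045 at 24 h, against 0.01 to 1.85, and at 0.12 at 24 h after the length trend was removed. Lats2 was the member with a change from lower to higher, at 0.1652 at 12 h against -1.11 to -0.12 at 5 h.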

How the results depend on the processing

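At 5 h the replicate block raised the members called from 0 higher and 1 lower to 3 and 12. With edgeR and the replicate block they were 4 and 11, with length correction and the replicate block 3 and 12, and with DESeq2 0 and 4. Of all genes, 17.9% passed as higher and 19.3% as lower with the replicate block. These shares were 18.1% and 16.3% with length correction and the replicate block, and 6.52% and 4.43% with DESeq2. With edgeR and replicate 1 at 5 h added they were 0 and 1, both with its table as a batch term and with the replicate block. Of all 13096 genes, the latter fit called 326 higher and 169 lower. Leaving out single libraries gave 0 to 1 higher and 0 to 3 lower, with 1 and 3 without treated replicate 3, and 0 lower without untreated replicate 2 or 4 or treated replicate 2 or 4. Shares of all genes are not given for edgeR on replicates 2 to 4 with the block, the batch term fit or the left-out libraries. The genes called in the 7 pathway lists (0 higher, 1 lower) were 20 and 40 with the replicate block, 20 and 41 with edgeR and the replicate block, 24 and 30 with length correction and the replicate block, 7 and 11 with DESeq2, 1 and 2 with edgeR once replicate 1 at 5 h was added and its table entered as a batch term, and 3 and 3 with the same 8 libraries and the replicate block, the last fit being chosen after seeing the data. Each list had 7 to 20 genes tested, and the shares of all genes given above apply to the same fits. The list count lower was 2 with upper quartile rescaling, 0 with limma without a trend and 0 with length correction. Without treated replicate 3 it was 11 higher and 13 lower, and over all left-out libraries 0 to 11 and 0 to 13. The cause of these shifts was not tested. The median of the smooth muscle and actin genes (-0.12) was -0.20 with length correction, with and without the replicate block, and -0.20 to -0.072 without single libraries. That of the YAP targets (0.03) ran from -0.16 to 0.043, turning negative without untreated replicate 3 (-0.15), treated replicate 2 (-0.035) or treated replicate 4 (-0.16), and was -0.033 with length correction.

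Among the members given with values in every library, some with small 5 h changes turned sign, none of them being called in the test without the block. Members outside that group turned too, such as Tpm4 (-0.031) and Zyx (0.006) with length correction, and Cnn3, Actg2 and Des without single libraries. Values follow for both edgeR fits that add replicate 1, batch term first, and for length correction (the same with and without the replicate block). For Actb they were -0.17, -0.17 and -0.080, for Tagln -0.013, -0.019 and -0.016, and for Amotl2 0.16, 0.15 and 0.073. Ctgf turned to -0.0056 and -0.049 with those edgeR fits, Myl9 to -0.0077 with the block and -0.32 with length correction, Tpm1 to 0.070 and Cyr61 to -0.081 with length correction. Without single libraries the ranges were -0.038 to 0.079 (Actb), -0.12 to 0.22 (Myl9), -0.14 to 0.073 (Tpm1), -0.16 to 0.52 (Ctgf), -0.065 to 0.41 (Cyr61), -0.17 to 0.96 (Ankrd1) and -0.19 to 0.052 (Amotl2).

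In replicate 1, scaling to total reads moved the median of all genes by -0.21 for treated to untreated at 1 h, 0.22 for untreated 12 to 1 h and 0.25 for untreated 24 to 1 h. With it the smooth muscle and actin medians were -0.15 at 1 h (5 genes below -1), -0.031 at 5 h and -0.67 at 24 h for treated to untreated, and -0.18, -0.25 and -0.53 for untreated 5, 12 and 24 h to 1 h (4 below -1 at 24 h), and the YAP medians -0.19 and -0.21 at 12 and 24 h, with 0 YAP targets below -1 at 12 h. Length correction gave smooth muscle and actin medians of -0.016 at 1 h (0 below -1), 0.071 at 5 h, -0.53 at 12 h and -0.49 at 24 h for treated to untreated, and -0.47 and -0.73 for untreated 5 and 24 h to 1 h. YAP targets below -1 were then 1 for treated to untreated at 1 h, and 1, 0 and 2 for untreated 5, 12 and 24 h to 1 h. Upper quartile rescaling gave medians of -0.21 for treated to untreated at 5 h and 0.025 for untreated 5 to 1 h, with 1 YAP target below -1 for treated to untreated at 1 h and 0 for untreated 12 to 1 h. Under all scalings the 12 and 24 h medians of the smooth muscle and actin genes stayed negative. With 1 library per group and time, replicate 1 ratios have no estimate of the spread.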
